A study of Mus musculus with 6 samples.

Results

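The lysosomal cathepsins are a group of proteases defined by where they work rather than by 1 chemical mechanism. The 10 genes considered here encode 1 aspartic protease (Ctsd), 8 cysteine proteases (Ctsb, Ctsc, Ctsf, Ctsh, Ctsl, Ctso, Ctss and Ctsz) and 1 serine carboxypeptidase (Ctsa). A gene was read where the array's platform annotation gave a transcript cluster exactly 1 symbol and that symbol was on the list. This held for 9 of the 10 genes, each with 1 cluster, among 16583 genes named in this way. Ctsc was not analysed here.

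The samples were Neuro2a cells, a mouse neuroblastoma line. In the knockdown group (3 arrays) the cells had been transfected, with Lipofectamine 2000, with RNA interference vectors of the pcDNA6.2-GW/EmGFP-miR system against Usf1 and Usf2. In the control group (3 arrays) they had received an empty vector. Each sample was read on 1 Affymetrix Mouse Gene 1.0 ST array. No label gives the share of cells that took up a vector or the time to harvest. The labels call the samples biological replicates without naming separate cultures, so any p-value reflects only how these 6 samples scatter, and that scatter may be technical.

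Cathepsins are made as inactive proenzymes, carried to the lysosome largely by mannose 6-phosphate receptors and activated there by acid and by other proteases. Together they degrade proteins delivered by endocytosis and autophagy, and neurons depend on them to clear proteins over a long life. Loss of cathepsin D causes a neuronal ceroid lipofuscinosis, and loss of cathepsin A causes galactosialidosis. USF1 and USF2 bind the E-box CACGTG as dimers. The lysosomal regulators TFEB, TFE3 and MITF recognise the same core.

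The promoters of the cathepsin genes are shown first because the factors lowered in the experiment bind a known sequence. RefSeq windows on build GRCm38.p6, from 250 bases before to 50 bases after a gene's start, were listed for 8 of the 10 genes. Ctsb and Ctsh had no entry. The letters CACGTG, which read the same on both strands, were found in the windows of 4 genes (Ctsa, Ctsd, Ctsf and Ctsl) and in 7.15% of all 32851 windows. A gene can have several windows, so a share of windows is not a share of genes. Counted by gene, 1385 tested genes had CACGTG in a listed window and 11686 did not. The longer form CACGTGAC, searched also as its reverse complement GTCACGTG and always overlapping a CACGTG, was found for Ctsd and Ctsa and in 2.25% of all windows. Counted by gene, 518 tested genes had the longer form and 12553 did not. In Ctsd 2 such sites began at positions -245 and -98 from the start. Ctsa has 2 listed starts, and the window of 1 of them held 2 sites, at positions -12 and 6. The single sites of Ctsl and Ctsf lacked the longer form and began at positions -236 and -79. The sites are given below 5′ to 3′ on the strand of the gene, with CACGTG in capitals and up to 10 bases on each side.
Ctsd, chr7:142388057-142388077, minus strand: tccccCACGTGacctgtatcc
Ctsd, chr7:142387910-142387935, minus strand: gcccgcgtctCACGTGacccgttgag
Ctsa, chr2:164833751-164833776, plus strand: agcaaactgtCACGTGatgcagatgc
Ctsa, chr2:164833768-164833793, plus strand: tgcagatgctCACGTGaccagagcta
Ctsl, chr13:64370741-64370766, minus strand: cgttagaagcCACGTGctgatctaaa
Ctsf, chr19:4855076-4855101, plus strand: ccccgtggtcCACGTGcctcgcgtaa

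The 250 bases before the start of Ctsd, the member with the largest difference between the groups, carry both of its sites, again in capitals.
Ctsd, chr7:142387828-142388077, minus strand: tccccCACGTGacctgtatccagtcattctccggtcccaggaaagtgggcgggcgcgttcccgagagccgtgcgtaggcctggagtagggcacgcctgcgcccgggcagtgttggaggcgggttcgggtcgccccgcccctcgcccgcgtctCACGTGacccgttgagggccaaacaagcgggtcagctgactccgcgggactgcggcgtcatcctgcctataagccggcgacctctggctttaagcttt
A match of letters describes the window only. Binding was not measured in these samples.

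All expression values below are log2 signals relative to the median of the same cluster over the 6 arrays, so they compare arrays and keep no level. A change is the knockdown mean minus the empty vector mean. Both targets were lower on all 3 knockdown arrays than on all 3 empty vector arrays, by 0.55 ± 0.07 (SE) for Usf1 and 0.38 ± 0.06 for Usf2 on the log2 scale (limma adjusted p over all genes of 0.320 and 0.348). The arrays differed in spread. The standard deviation over all clusters was 0.159 on knockdown array 2 and between 0.0531 and 0.0780 on the other 5. From the rounding of the deposited numbers each cluster could be placed in 1 of 2 brightness classes, the dimmer with uncentred log2 signals of 4 to 8 and the brighter of 8 to 16. On knockdown array 2 the medians of these classes were 0.071 and -0.028. Of the neuronal and neuroblastoma markers, 8 of 12 measured were in the brighter class, among them Phox2a, Hand2, Gata3 and Chga, with Th and Dbh in the dimmer one. Of the macrophage and blood cell markers 0 of 9 were, and of the fibroblast markers 0 of 7. At an unadjusted limma p under 0.05, 0 neuronal markers were higher and 3 lower (Dbh at -0.25, Chgb at -0.15 and Elavl4 at -0.13) of 12, against 1.6% and 2.65% of all genes, with a list median of 0.013. Dbh kept this in each fit without 1 array, while Chgb and Elavl4 lost it in 3 of 6 each, when empty vector array 2 or 3 was dropped and also knockdown array 2 (Chgb) or 1 (Elavl4). Th was lower at that p when knockdown array 2 was dropped (-0.14), and Nefm higher when knockdown array 3 was (0.14). Of all genes 831 were lower in the first of these fits and 614 higher in the second. The fibroblast markers had a median of 0.074, and of -0.033 without knockdown array 2, with 0 past the same p. This count became 1 when knockdown array 1 was dropped (Pdgfrb, higher at 0.15) and 1 when knockdown array 3 was (Col3a1, higher at 0.15). In those fits 211 and 614 of all genes were higher at that p. The part of these markers in the cathepsin changes was not tested.

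The cathepsins differed among themselves. Ctsd and Ctsb had higher signals on all 3 knockdown arrays, 1.21-fold and 1.12-fold on average, and Ctsa lay higher by a smaller step. The other 6 genes had overlapping groups. Over all genes tested, 0 of the 9 cathepsins passed an adjusted p of 0.05 in limma. Of all genes 0.00603% passed (1 of 16583, the lysosomal dipeptidyl peptidase gene Dpp7, named after its values were seen). At an unadjusted p under 0.05 limma counted 2 of the 9 as higher (Ctsd and Ctsb), where the share over all genes was 1.6% and over the brighter class, which holds both, 1.46%. It counted 0 of the 9 as lower, where the share over all genes was 2.65%. Without knockdown array 2 the higher count was again 2 of 9, against 2.51% of all genes. The 3 knockdown arrays lay above the 3 empty vector arrays for 3 of the 9 genes against 4.33% of all genes and 5.46% of the brighter class, and below them for 0 of the 9 against 5.95%. An exact two-sided permutation test gave each of these 3 genes p = 0.10, the smallest that 3 against 3 arrays allow. The median change of the 9 genes was 0.035, with 7 above 0 and 2 below, against a median of -6.6e-04 over all genes.

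**Figure D1:**
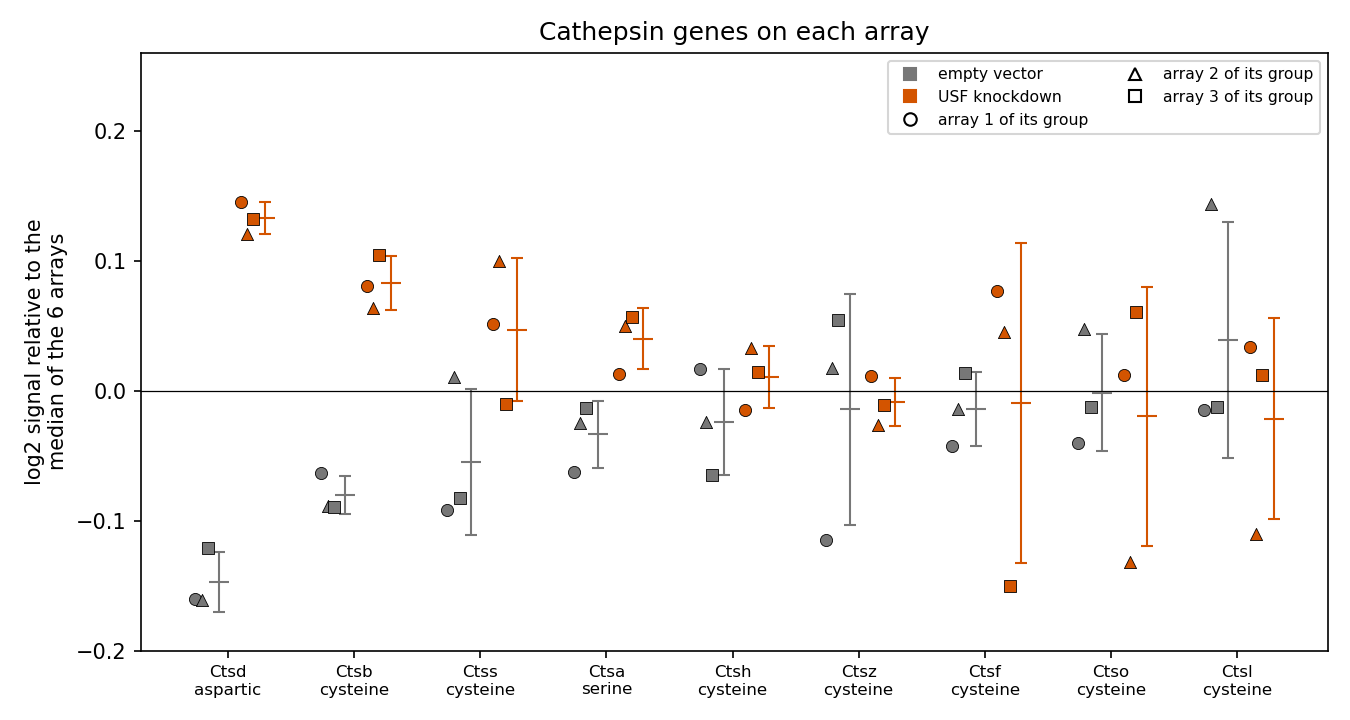
Log2 signal of each measured cathepsin gene on each array, relative to the gene's median over the 6 arrays (vertical axis), with genes ordered along the horizontal axis by their change. Grey marks are empty vector arrays, orange marks knockdown arrays, the shape gives the array number within its group, and bars show the mean ± SD (n = 3). The groups lie apart for Ctsd, Ctsb and Ctsa and overlap for the other 6 genes.

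Ctsd encodes the main aspartic protease of the lysosome, an endopeptidase that cuts proteins internally and activates other lysosomal proenzymes. Its cluster (10569319, brighter class) read -0.16, -0.16 and -0.12 on empty vector arrays 1, 2 and 3. On knockdown arrays 1, 2 and 3 it read 0.15, 0.12 and 0.13. The 2 groups were separated by a gap of 0.24, wider than the range within either group. The control mean was -0.15 ± 0.02 (SD, n = 3). The knockdown mean was 0.13 ± 0.01 (SD, n = 3). The change was 0.28 ± 0.04 (SE), a fold of 1.21 with a 95% interval of 1.14 to 1.29. The limma p was 1.19e-04 unadjusted and 0.328 adjusted over all genes. By change Ctsd ranked 7 from the highest among all 16583 genes, and 5 among the 7320 genes of the brighter class. Without any 1 array its change stayed between 0.27 and 0.29 with an unadjusted limma p of at most 0.00109, but the adjusted p did not fall under 0.05 in any of these 6 fits (0.135 to 1.0).

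Ctsb encodes a cysteine protease that acts as an endopeptidase and also removes dipeptides from the C-terminal end of its substrates. Its cluster (10415844, brighter class) read -0.064, -0.088 and -0.090 on the empty vector arrays and 0.080, 0.064 and 0.10 on the knockdown arrays. The lowest knockdown array exceeded the highest empty vector array by 0.13. The means were -0.081 ± 0.015 (SD, n = 3) and 0.083 ± 0.021 (SD, n = 3). The change was 0.16 ± 0.04 (SE), a fold of 1.12 with a 95% interval of 1.05 to 1.19 (limma adjusted p = 0.899 over all genes, 0.00346 before adjustment). Without any 1 array it stayed between 0.15 and 0.17, with an unadjusted limma p of at most 0.0158.

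Ctsa, the serine carboxypeptidase that also shields the lysosomal sialidase NEU1 and the β-galactosidase GLB1 from degradation, differed less. Its cluster (10478594, brighter class) read -0.063, -0.025 and -0.013 on the empty vector arrays and 0.013, 0.050 and 0.057 on the knockdown arrays. The groups did not overlap, but the gap between them was 0.026. The change of 0.074 ± 0.041 (SE), or 1.05-fold with a 95% interval of 0.986 to 1.12, did not pass (limma adjusted p = 0.996 over all genes, 0.11 before adjustment). Without 1 array at a time it lay between 0.059 and 0.087.

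The remaining 6 members are all cysteine proteases, and in each the 2 groups overlapped. Ctss, an endopeptidase of antigen-presenting cells that stays active at neutral pH, had the largest change among them. Its cluster (10494271, dimmer class) read -0.092, 0.010 and -0.083 with empty vector and 0.051, 0.10 and -0.010 with knockdown. Empty vector array 2 lay above knockdown array 3. The change was 0.10 ± 0.05 (SE, limma adjusted p = 0.996 over all genes, 0.078 before adjustment). Its unadjusted limma p was 0.0462 when empty vector array 2 was dropped and 0.196 when array 3 of that group was. Without knockdown array 2 the change was 0.075, with an unadjusted limma p of 0.159. The 9 measured macrophage and blood cell markers, all in the dimmer class like Ctss, had medians of 0.074, 0.083 and -0.058 on knockdown arrays 1, 2 and 3 against the empty vector mean. Ctss was at 0.11, 0.15 and 0.045 on the same arrays. Of these markers 8 had a change above 0, as did 5148 of the 9021 genes of the dimmer class. At an unadjusted limma p under 0.05, 0 markers were higher and 1, Cd74, was lower (-0.20 ± 0.08, SE), against 1.6% and 2.65% of all genes. Cd74 lost this when empty vector array 2 or 3 or knockdown array 1 or 2 was left out. At the same p Cd14 was higher when empty vector array 1 was left out (0.12) and Tyrobp when knockdown array 3 was (0.29). In those fits 258 and 614 of all 16583 genes were higher at that p. Without knockdown array 2 the median of the markers was 0.013, with 5 of 9 above 0. Their part in the change of Ctss was not tested.

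Ctsh, which cuts amino acids from the N-terminal end of proteins, had a change of 0.035 ± 0.043 (SE). Its cluster (10587733, dimmer class) read 0.017, -0.024 and -0.065 with empty vector and -0.015, 0.033 and 0.015 with knockdown. Ctsz, a carboxypeptidase that removes single residues, had a change of 0.0057 ± 0.0535 (SE). It read -0.11, 0.018 and 0.054 on the empty vector arrays and stayed between -0.026 and 0.011 on the knockdown arrays. The 3 empty vector arrays alone spanned a wider range than the knockdown ones, which lay inside it. Ctsf, whose propeptide carries a cystatin-like domain, had a change of 0.0047 ± 0.0648 (SE). It read -0.043, -0.014 and 0.014 with empty vector, and 0.077, 0.045 and -0.15 with knockdown, so that knockdown array 3 lay below every other array while the other knockdown arrays lay above all controls.

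The changes of Ctsl and Ctso lay below 0. Ctsl, an endopeptidase that also processes other cathepsins, had a change of -0.060 ± 0.062 (SE). Its cluster (10410124, brighter class) read -0.015, 0.14 and -0.012 with empty vector and 0.034, -0.11 and 0.012 with knockdown. Empty vector array 2 was the highest and knockdown array 2 the lowest of the 6, and leaving out the one or the other gave changes of -0.0079 and -0.016. Ctso, a widely expressed member whose substrates are little known, had a change of -0.018 ± 0.059 (SE). It read -0.040, 0.048 and -0.012 with empty vector and 0.012, -0.13 and 0.060 with knockdown. Its sign turned to 0.014 after quantile normalization and to 0.038 without knockdown array 2, the array with the wide spread. For these 6 genes the 95% intervals of the fold ran from 0.868 (lowest bound, Ctsl) to 1.16 (highest bound, Ctss), and the interval of Ctss alone reached the 1.12-fold of Ctsb, the upper bounds of the other 5 lying between 1.06 and 1.11.

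**Figure D2:**
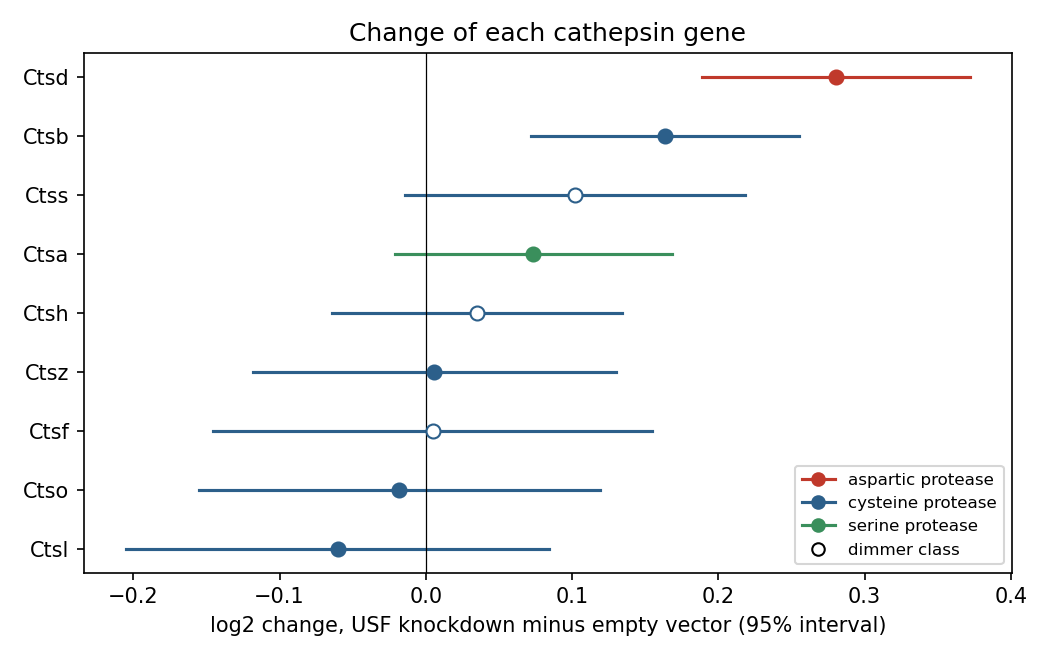
Log2 change of each measured cathepsin gene, knockdown minus empty vector (horizontal axis), with its 95% interval from limma, genes in rows. Colours give the protease class and open circles the dimmer brightness class. The intervals of Ctsd (0.19 to 0.37) and Ctsb (0.072 to 0.26) lie above 0 and those of the other 7 genes include 0.

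By protease class, the aspartic member Ctsd had a change of 0.28, the serine member Ctsa 0.074 and the 7 measured cysteine members a median of 0.0057, from -0.060 (Ctsl) to 0.16 (Ctsb). Of the cysteine members 5 lay above 0 and 2 below. Their median stayed near 0 but not on 1 side of it: it was -0.0062 over the 4 members of the brighter class, -0.0095 when empty vector array 1 was dropped and 0.033 when knockdown array 3 was. Within each array the difference between Ctsd and the median of the cysteine members was -0.12, -0.17 and -0.11 with empty vector and 0.11, 0.089 and 0.12 with knockdown. It shifted by 0.24 between the groups, which did not overlap. For Ctsa the same difference was -0.020, -0.035 and -8e-04 with empty vector and -0.020, 0.017 and 0.045 with knockdown, a shift of 0.033. The values of empty vector array 1 and knockdown array 1 were nearly the same. Ctsd also shifted against Ctsb, by 0.12, and against Ctsa, by 0.21. With 1 gene in 2 of the 3 classes, no test between classes was made.

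**Figure D3:**
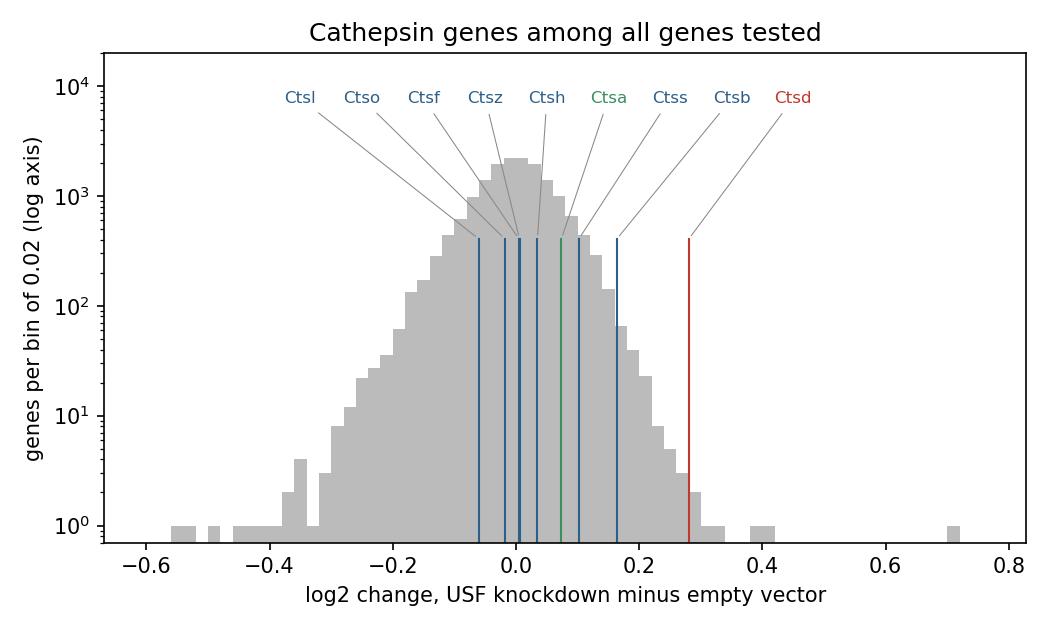
Number of genes (vertical log axis) by log2 change, knockdown minus empty vector, in bins of 0.02 (horizontal axis) for all 16583 genes tested, with a coloured line at each cathepsin gene. Ctsd (0.28) stands at the upper edge of the distribution, Ctsb (0.16) on its upper flank and the other 7 genes between -0.060 and 0.10.

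The genes with which cathepsins work had small changes of both signs. Of 8 measured of 9 genes for processing, activation and partner proteins, 0 passed in limma over all genes and 0 were at an unadjusted p under 0.05. Of all genes 1.6% were higher and 2.65% lower at that p. Their median change was -0.024, with 2 above 0 and 6 below. Without knockdown array 2 1 of the 8, Tinagl1 (-0.13), was lower at that p, against 5.01% of all genes in that fit. Psap, the precursor of the saposins and a binding partner of procathepsin D, read -0.0056, -0.0048 and -0.0019 with empty vector and 0.0019, 0.064 and 0.050 with knockdown. Its groups lay apart by a very small gap, with a change of 0.043 ± 0.040 (SE). Neu1 and Glb1, the partners of cathepsin A, had changes of -0.070 ± 0.045 and -0.040 ± 0.042 (SE), opposite in sign to that of Ctsa. The groups of Neu1 did not overlap, the knockdown arrays being lower by a gap of 0.014, and those of Glb1 did. Lgmn, the asparaginyl endopeptidase that trims several cathepsins, had a change of -0.020 ± 0.046 (SE).

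Of the genes that sort enzymes to the lysosome, 13 measured of 15, 0 passed in limma over all genes. At an unadjusted p under 0.05, 1 of the 13 was lower and 0 were higher, against 2.65% and 1.6% of all genes. Gga2, a clathrin adaptor that carries mannose 6-phosphate receptors from the Golgi, read 0.019, 0.083 and 0.10 with empty vector and -0.019, -0.091 and -0.15 with knockdown. The groups did not overlap, and the change was -0.15 ± 0.05 (SE, limma adjusted p = 0.996 over all genes, 0.0155 before adjustment). Dropping empty vector array 3 or knockdown array 3 moved the unadjusted p to 0.0591 and 0.0575. Cln3, a lysosomal membrane protein linked to receptor sorting, had a change of -0.060 ± 0.044 (SE). The mannose 6-phosphate receptor Igf2r had 0.077 ± 0.060 and the sorting receptor Sort1 -0.037 ± 0.046, both given after their values were seen. Without knockdown array 2 the change of Igf2r was 0.016. The median of the list was -0.015.

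The inhibitors that hold cathepsins in check were mostly in the dimmer class. Of 9 measured of 21, 0 passed in limma over all genes and 0 were at an unadjusted p under 0.05, with a median change of -0.027. At that p 1.6% of all genes were higher and 2.65% lower. Cst3, the secreted cystatin C, had a change of 0.0092 ± 0.0434 (SE) and Cstb, the cytosolic cystatin B, -0.0052 ± 0.0538. These 2 were the only inhibitors in the brighter class and were named after their values were seen. Ctla2a, an inhibitor that resembles a cathepsin propeptide, had a change of -0.26 ± 0.13 (SE). It read 0.0083, 0.077 and 0.0024 with empty vector and -0.0024, -0.55 and -0.13 with knockdown, so that the size rested on knockdown array 2. Cst7, an inhibitor of cathepsins in immune cells, had -0.052 ± 0.040. At an unadjusted limma p under 0.05 the count became 1 lower of 9 when knockdown array 1 was left out (Ctla2a), against 358 of all 16583 genes. It was also 1 lower of 9 when knockdown array 2 was left out (Cst6), against 5.01% of all genes. Of the cathepsins outside the group of 10, 5 of 13 were measured (Ctse, Ctsk, Ctsr, Ctsw and Ctsll3), all in the dimmer class. Of these 0 passed in limma over all genes or at an unadjusted p under 0.05. Ctsw, a protease of cytotoxic lymphocytes, and Ctse, an aspartic protease of immune and stomach cells, had changes of 0.066 ± 0.057 and 0.057 ± 0.055 (SE), which were 0.031 and 0.0036 without knockdown array 2. The median of the 5 was 0.015, and -0.014 without knockdown array 2.

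**Figure D4:**
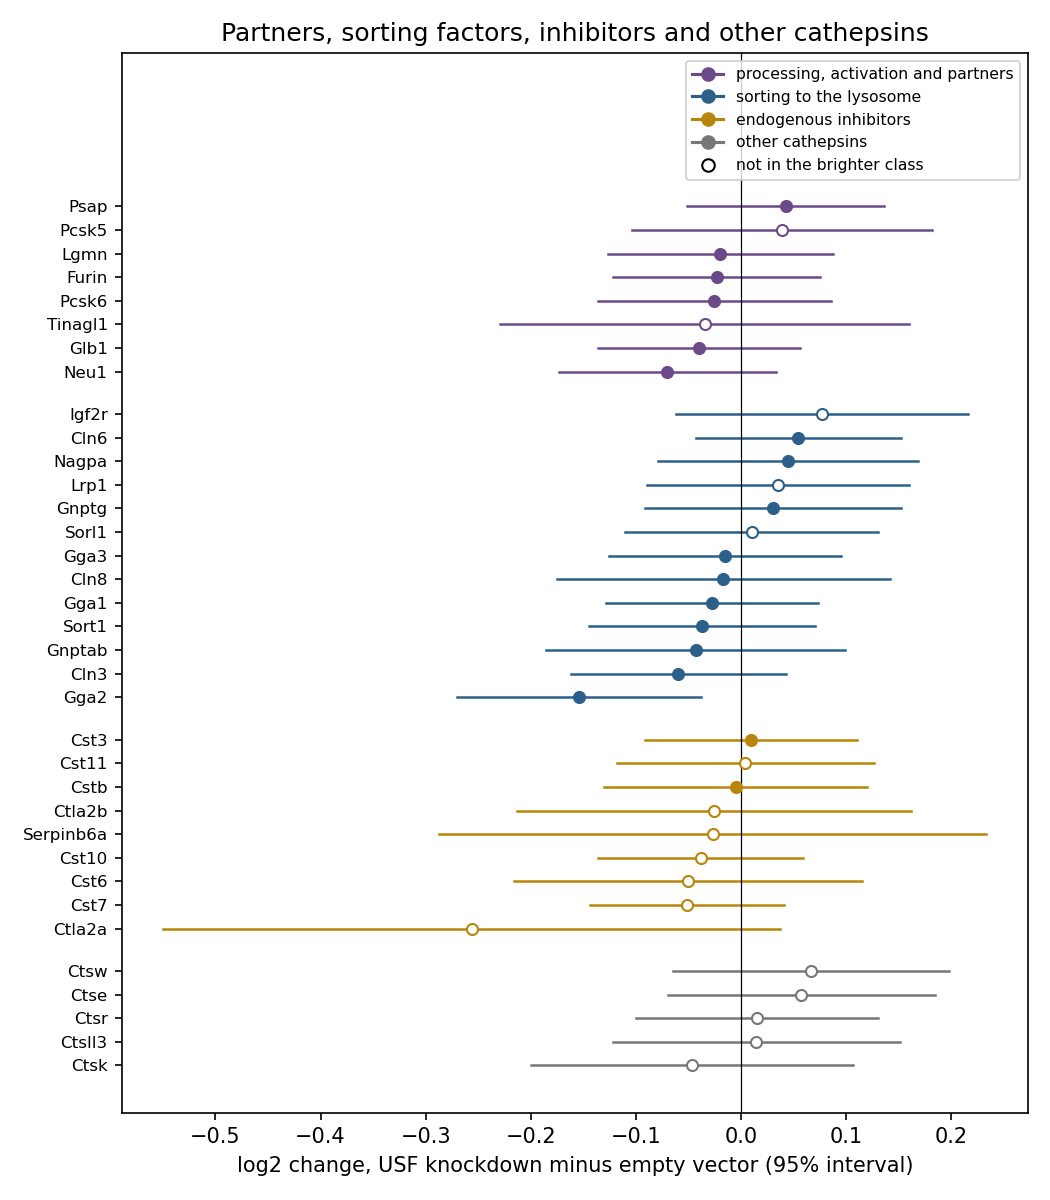
Log2 change, knockdown minus empty vector (horizontal axis), with its 95% interval from limma for each measured gene of the lists of partners, sorting factors, inhibitors and other cathepsins, in rows. Filled circles are in the brighter class. The interval of Gga2 (-0.27 to -0.038) is the one that leaves out 0 among these 35 genes.

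The presence of the E-box in a promoter was set beside the changes. Of the 4 cathepsins with CACGTG, Ctsd (0.28) and Ctsa (0.074) hold the longer form CACGTGAC, while Ctsf (0.0047) and Ctsl (-0.060) do not. Ctss, Ctso and Ctsz, whose windows hold no CACGTG, had changes of 0.10, -0.018 and 0.0057. Ctsb (0.16), with the second largest change of the members, and Ctsh (0.035) had no listed window and could not be placed. Among all 518 tested genes with CACGTGAC in a listed promoter the median change was -0.0056. At an unadjusted limma p under 0.05, 3.47% of them were higher and 6.76% lower, against 1.58% and 2.5% of the 12553 genes without it. In the brighter class these shares were 4.8% and 7.81% of 333 genes with the longer form, against 1.29% and 3.33% of 5640 genes without. Without knockdown array 2 they were 6.76% higher and 6.56% lower of the 518 genes, against 2.45% and 4.69%. For CACGTG with any flanking bases the shares lay closer together. At the same p 2.31% of 1385 genes with it were higher and 4.62% lower, against 1.57% and 2.44% of 11686 without. Without knockdown array 2 they were 4.33% higher and 5.2% lower, against 2.42% and 4.72%. All these shares are descriptions and were not tested.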

How the data were processed

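The members and the gene lists were chosen with earlier results of these data known, so counts over them are descriptions and no p adjusted over a list is given. Labelled cDNA was made from total RNA with kits of Ambion and Affymetrix, per the labels' protocols. The table the authors deposited holds 6 columns of log2 values for 22891 transcript clusters, with the median of each row set to 0. Its log base, background correction and normalization between arrays are not stated in the sources used. The log2 reading rests on differences between arrays being whole multiples (tolerance 0.05, values nearer 0 than 0.001 left out) of single-precision rounding steps. The step was 4.77e-07 (signals of 4 to 8) for 12915 clusters and 9.54e-07 (8 to 16) for 9976, which are the dimmer and brighter classes. A dimmer cluster falls in the brighter class where all its differences happen to be multiples of the larger step. A cluster with signals on both sides of 8 falls in the dimmer class. How many clusters were placed wrongly was not counted. Of the clusters 18087 had 1 gene symbol in the platform annotation, 1145 had several and 3659 none. Clusters of 1 gene were averaged.

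Knockdown was compared with empty vector in limma 3.58.1 (lmFit, eBayes; R 4.3.3) with 4 residual degrees of freedom and Benjamini-Hochberg adjustment over 16583 genes. Precision is limited by the number of arrays, at a median standard error of 0.0561. The fit was tested on simulated data. The genes named are the cathepsins, the 2 targets and, from each of the lists of partners, sorting factors, inhibitors and other cathepsins, those at an unadjusted p under 0.05 or, with fewer than 2 of these, the 2 with the smallest p. Other genes were named after their values were seen. Figures and promoter searches used Python 3.11.15, with promoter sequences from RefSeq (GRCm38.p6). Alternatives were the replicate block, quantile normalization, centring on array medians, a robust prior, array weights, the brighter class alone, separate clusters and leaving out each array.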

Additional observations from a re-analysis of the deposited data

How the results depend on the processing

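Over the alternatives run, Ctsd stayed between 0.27 and 0.33 and Ctsb between 0.15 and 0.20, both at an unadjusted limma p under 0.05 in 13 of 13 alternatives. Both passed over all genes in 1 alternative, array weights (limma adjusted p of 0.00115 and 0.011; 0.0716 to 1.0 and 0.194 to 1.0 in the others). That fit gave a weight of 33 to knockdown array 1 and of 0.136 and 0.441 to the other knockdown arrays, so its knockdown mean was in effect that of 1 array. With array weights 2 cathepsins and 1111 genes in all passed the adjusted threshold, as did 1 gene for processing (Tinagl1), and Usf1 and Usf2 (-0.62 and -0.46) passed it. At an unadjusted p under 0.05 that fit counted 1823 genes higher and 2533 lower, with 3 inhibitors, 2 processing genes and 3 sorting genes lower. It counted 3 cathepsins higher at that p, namely Ctsd, Ctsb and Ctss (a change of 0.10). Ctsa had a change of 0.042 in that fit and was not among the genes counted.

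Deviations from the group means correlated over genes at 0.0031, 0.082 and 0.036 for same-numbered arrays of the 2 groups. For arrays of unlike number the correlations lay between -0.094 and 0.053. With so few arrays per group such values cannot show whether same-numbered arrays shared a culture or batch. With the replicate block 0 genes passed, with 245 higher and 391 lower at an unadjusted limma p under 0.05, and 2 cathepsins were higher at an unadjusted p under 0.05. Quantile normalization gave 400 genes higher and 497 lower at that p, with 1 inhibitor lower and Ctsd at 0.33. The brighter class alone gave 177 higher and 394 lower. That fit held fewer genes, so its counts cannot be set directly beside those over all genes.

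Leaving out 1 array gave 0 to 1 genes past the adjusted threshold. At an unadjusted limma p under 0.05 it gave 159 (without empty vector array 3) to 614 (without knockdown array 3) higher and 210 (without empty vector array 3) to 831 (without knockdown array 2) lower, 0 to 1 lower in each of the inhibitor, processing and sorting lists, and a cysteine median of -0.0095 to 0.033. Signs turned for members near 0. Ctsf ranged from -0.039 to 0.075, Ctso from -0.058 to 0.038 and Ctsz from -0.045 to 0.040 without 1 array, and Ctso was at 0.014 after quantile normalization and 0.0093 with array weights. The cause of these turns was not tested.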
